A study of Mus musculus with 6 samples.

Results

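MicroG2 is one of the 3 microglia clusters that the authors separated in the adult mouse olfactory bulb. Its members were 790 of the 51426 cells that the deposited annotation divides into 38 clusters. The annotation and the study's marker lists exchange the names of the first and the second microglia cluster, so these 790 cells are called MicroG1 in the annotation. Here MicroG2 is the cluster of 790 cells and MicroG1 the cluster of 2260 cells, since the numbers of cells per library match the published lists under these names. MicroG3 held a further 951 cells of low depth.

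RNA was measured in single cells of dissociated olfactory bulbs. The mice were of the strain C57BL/6NJ and 14 weeks old. Control libraries came without manipulation by their labels, naris occluded libraries after a plug had closed the nostril, and olfactory trained libraries after water-deprived mice had learned to discriminate odors. Manipulations lasted 6 weeks, each condition had 2 libraries, and each library was a pool of 3 mice, whose sex the labels do not give. The study used males and females. The dissected tissue held some olfactory epithelium. The study speaks of naive mice as controls, and also of the open side of occluded mice as the control. Tissue was digested with papain in the warm before droplets captured the cells, and counts are unique molecular identifiers (UMIs) at the 3′ ends of transcripts.

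Microglia are the resident macrophages of the brain, which survey the tissue, take up debris and release cytokines. Cells that receive a stimulus switch on immediate early genes without first making new protein. The products include the transcription factors Fos and Jun, which pair as AP-1, and they are followed by inhibitors that shut the response down and, in microglia, by chemokines.

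The 6 libraries held 117, 138, 117, 177, 105 and 136 MicroG2 cells in the order control 1, control 2, naris occluded 1, naris occluded 2, olfactory trained 1 and olfactory trained 2. Values per library follow this order throughout. The MicroG2 cells of a library summed to between 232354 and 386086 UMIs, and a cell had a median of 2336 UMIs and 1106 genes. A MicroG1 cell had 1847 UMIs and 959 genes, and a MicroG3 cell had 748 UMIs and 401 genes. Mitochondrial transcripts made up a median of 5.94% of a MicroG2 cell, 6.49% of a MicroG1 cell and 14.4% of a MicroG3 cell. The study states that doublets were removed, and no further caller was run. Of the MicroG2 barcodes, 31 also occurred in another library, and 0 occurred there as MicroG2 cells. Levels are UMIs summed over the cells of a cluster in a library and scaled to a total of 1000000 UMIs (CPM), with the SD over the 6 libraries.

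MicroG2 carried the defining markers of microglia at levels close to those of MicroG1. Siglech, a sialic acid-binding lectin of microglia, stood at 765 ± 67.4 CPM in MicroG2 and 905 ± 123 CPM in MicroG1 (n = 6), the highest levels of the 38 clusters. Aif1, which encodes the actin-bundling protein Iba1, stood at 1247, 1292, 1257, 1078, 1050 and 1171 CPM in MicroG2, and its mean in MicroG1 was 1225 ± 67.5 CPM. After each cell had been thinned to 1000 UMIs, 52.5% of 777 MicroG2 cells and 58.4% of 2090 MicroG1 cells held a UMI of Siglech, against 0.444% of OEC3 ensheathing cells, which should lack it. Without thinning these shares were 82.2%, 77.6% and 0.611%. Median depths before thinning were 2336 UMIs in MicroG2, 1847 in MicroG1 and 2117 in OEC3. The 8 markers of border macrophages summed to between 16.3 and 44.9 CPM in the MicroG2 libraries, with 3 of them at 0, and the 8 markers of monocytes to between 5.44 and 18.5 CPM, with 2 at 0. Both groups were near 0 beside Siglech and Aif1, and the label of microglia held.

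All 19 listed genes of microglial identity passed the level of 50 CPM at which ratios were compared. None of them was past a log2 ratio of 1 or -1 between MicroG2 and MicroG1 in all 6 libraries. At any size, 10 of the 19 were lower and 0 higher in MicroG2 in all 6. Over all genes compared, 9.54% were lower and 5.02% higher in all 6, so small decreases were more frequent among the identity genes. Their median log2 ratio was -0.21, beside -0.08 over all 2829 genes compared. The lowest were the purinergic receptor P2ry13 at -0.36 ± 0.19, the selectin ligand Selplg at -0.35 and P2ry12, the receptor that guides microglial processes to ATP, at -0.34 ± 0.14. P2ry12 stood at 1641 ± 195 CPM in MicroG2 and 2094 ± 325 CPM in MicroG1. Csf1r, the receptor for the growth factor that keeps microglia alive, was at 1905 ± 71.9 and 1850 ± 134 CPM.

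What set MicroG2 apart from MicroG1 was a broad early response program. The clusters were drawn from the same expression values, so these ratios describe the cluster and were not tested. Of the 2829 genes compared, 30 (1.06%) had a log2 ratio above 1 in each of the 6 libraries, and 0 had one below -1 in each. At any size, 142 genes (5.02%) were higher and 270 genes (9.54%) lower in every library. Of the 30 genes, 21 had their highest level of all 38 clusters in MicroG2, as did 154 genes (5.44%) of all compared. The plot of levels by library shows the separation for the early response genes and much smaller differences for the markers of microglia.

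**Figure D1:**
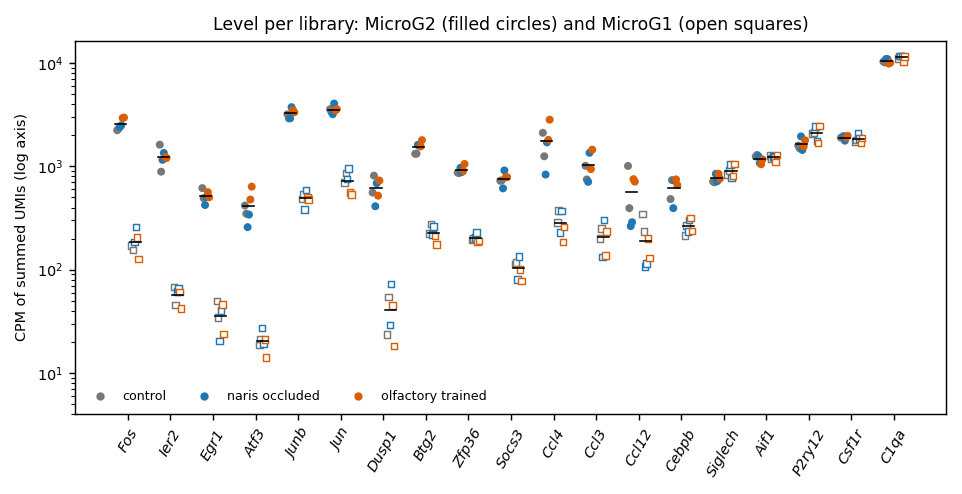
Level of 19 genes in MicroG2 (filled circles) and MicroG1 (open squares), 1 point per library colored by condition, in CPM on a log axis, with a bar at the mean. Fos and Jun lie above MicroG1 in all 6 libraries, whereas Aif1 and Csf1r overlap.

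Promoters of 5 of these genes are shown because 4 of them, Fos, Dusp1, Btg2 and Ppp1r15a, belong to the response and hold matches to the cyclic AMP response element (CRE, TGACGTCA) or its core site (TGACG), while the chemokine gene Ccl3 holds none of the motifs searched. Each is the 250 bases before the annotated start from RefSeq on GRCm38.p6, 5′ to 3′ on the strand of the gene, with matches in capitals. Fos lies on the plus strand of chromosome 12 (chr12:85473640-85473889). The others lie on the minus strand, Dusp1 at chr17:26508473-26508722, Btg2 at chr1:134079156-134079405, Ppp1r15a at chr7:45526269-45526518 and Ccl3 at chr11:83649379-83649628.
Fos: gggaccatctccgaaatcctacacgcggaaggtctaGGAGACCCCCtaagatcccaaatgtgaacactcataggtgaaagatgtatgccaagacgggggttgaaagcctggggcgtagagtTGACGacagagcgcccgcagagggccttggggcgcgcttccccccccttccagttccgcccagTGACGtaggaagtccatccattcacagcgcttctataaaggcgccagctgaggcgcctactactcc
Dusp1: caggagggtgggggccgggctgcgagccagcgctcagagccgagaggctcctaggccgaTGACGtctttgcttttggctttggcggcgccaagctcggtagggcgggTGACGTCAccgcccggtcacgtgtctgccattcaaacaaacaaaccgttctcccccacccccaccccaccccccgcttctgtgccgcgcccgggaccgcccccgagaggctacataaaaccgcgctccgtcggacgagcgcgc
Btg2: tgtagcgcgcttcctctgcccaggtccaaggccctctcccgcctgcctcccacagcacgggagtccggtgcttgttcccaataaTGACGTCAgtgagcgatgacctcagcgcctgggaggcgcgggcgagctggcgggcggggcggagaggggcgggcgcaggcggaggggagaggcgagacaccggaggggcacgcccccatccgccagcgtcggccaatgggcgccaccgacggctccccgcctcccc
Ppp1r15a: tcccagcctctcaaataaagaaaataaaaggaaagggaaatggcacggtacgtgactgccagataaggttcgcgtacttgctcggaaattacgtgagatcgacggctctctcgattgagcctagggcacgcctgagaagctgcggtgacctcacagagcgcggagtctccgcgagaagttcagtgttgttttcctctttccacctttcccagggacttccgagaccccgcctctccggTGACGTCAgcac
Ccl3: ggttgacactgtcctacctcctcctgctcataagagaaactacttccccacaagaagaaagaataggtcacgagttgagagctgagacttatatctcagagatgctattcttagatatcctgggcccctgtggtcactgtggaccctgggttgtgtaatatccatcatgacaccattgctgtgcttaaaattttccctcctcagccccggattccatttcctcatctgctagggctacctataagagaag

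The CRE lies 143 to 136 bases before the start in Dusp1, 166 to 159 in Btg2 and 12 to 5 in Ppp1r15a, and the core sites of Fos lie at 129 to 125 and 66 to 62, with a match to the NF-kB motif at 214 to 205. Of the 30 genes, 21 had a promoter in the reference table. The CRE was found on either strand in 3 of the 21 (14.3%) and in 1.55% of all 32851 promoters. The core site was found in 11 of 21 (52.4%) and in 17.8% of all, and it overlaps every CRE. Among promoters of all genes compared between the clusters, the shares were 2.72% for the CRE and 27.8% for the core site. The NF-kB motif occurred in 5 of 21 (23.8%) against 3.90% of all, the CArG box in 1 of 21 against 1.47%, and the AP-1 motif (TGACTCA) in 0 of 21 against 4.46%. These counts describe letters in the windows, and the core site was added after the sequences had been seen.

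The transcription factors of the early response made up the largest block of the 30 genes. Of 22 listed factors, 20 were in the table, 13 passed the level filter, 11 of these were past a log2 ratio of 1 in all 6 libraries, and all 13 were higher in all 6. This filter keeps a gene through the cluster where it is high, so the count describes and does not support the list. The 20 factors summed to 15482 ± 1364 CPM in MicroG2 and 2561 ± 341 CPM in MicroG1.

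Fos was measured at 2241, 2317, 2409, 2498, 2944 and 2973 CPM in MicroG2. In MicroG1 it was 171, 156, 186, 259, 205 and 127 CPM, so the clusters did not overlap, and the log2 ratio was 3.76 ± 0.40. The next cluster was OEC2, an ensheathing cluster, at 1976 ± 481 CPM. Jun, the partner of Fos, stood at 3584, 3364, 3206, 4065, 3490 and 3592 CPM in MicroG2 against 698, 866, 759, 955, 557 and 537 CPM in MicroG1, a log2 ratio of 2.30 ± 0.32. Junb, another Jun protein, had 3278 ± 331 and 496 ± 70.3 CPM (log2 ratio 2.71 ± 0.17). Jund, the member of the family least tied to stimulation, had a smaller ratio of 1.71 ± 0.21.

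Ier2, a nuclear protein of the early response, had the highest log2 ratio of all genes compared, 4.21 ± 0.21. Its level ran from 889 to 1624 CPM in MicroG2 and from 42.2 to 68.2 CPM in MicroG1. Egr1, a zinc finger factor, was at 617, 492, 423, 505, 564 and 502 CPM against 20.4 to 49.6 CPM (log2 ratio 3.56 ± 0.25). Atf3, a stress-induced factor that dampens inflammatory genes, was at 418, 348, 258, 341, 478 and 637 CPM against 14.1 to 27.2 CPM (log2 ratio 3.76 ± 0.63). Both factors were more abundant in MicroG2 than in any other cluster. Fosb was level with OEC2, at 218 ± 28.1 CPM in MicroG2 and 218 ± 31.7 CPM there. Klf2, a factor of quiescent endothelium and macrophages, was at 718 ± 273 CPM against 49.5 ± 17.9 CPM in MicroG1, yet the endothelial cluster EC1 was higher at 1817 ± 509 CPM.

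Not all listed factors reached a high level. Nr4a1, an orphan nuclear receptor, reached 32.5 ± 17.2 CPM in MicroG2, Egr3 1.29 ± 2.02 CPM and Nr4a2 1.91 ± 2.23 CPM. Fosl2, a further Fos relative, was at 14.6 ± 6.55 CPM, and Fosl1 was not in the table. These factors were below the level of 50 CPM in both microglia clusters. Cebpb, a regulator of cytokine genes, was higher in MicroG2 in all 6 libraries without passing a log2 ratio of 1 in each (1.20 ± 0.26, 625 ± 150 against 262 ± 41.2 CPM).

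Inhibitors that follow the early response were the next block. All 22 listed genes were in the table, 16 passed the filter, 8 were past a log2 ratio of 1 in all 6 libraries and 15 were higher in all 6. They summed to 8729 ± 635 CPM in MicroG2 and 2809 ± 156 CPM in MicroG1. Dusp1, a phosphatase that turns off MAP kinases, was at 558, 813, 411, 687, 521 and 730 CPM against 18.3 to 72.9 CPM (log2 ratio 3.71 ± 0.60). Btg2, an antiproliferative protein that recruits messenger RNA deadenylases, was at 1536 ± 181 against 229 ± 37.0 CPM. Zfp36, which destroys cytokine messages with AU-rich ends, was at 870, 862, 970, 883, 904 and 1057 CPM against 188 to 229 CPM (log2 ratio 2.15 ± 0.17). Socs3, the inhibitor of cytokine receptor kinases, had 759 ± 98.8 against 104 ± 22.1 CPM. The highest MicroG1 library stayed below the lowest MicroG2 library for each of these genes.

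The NF-kB pathway was represented by Nfkbia, which holds the factor in the cytoplasm, at 418 ± 96.1 against 118 ± 38.7 CPM, and Nfkbiz, a nuclear cofactor, at 103 ± 23.9 against 12.9 ± 2.80 CPM. Rgs2 and Rgs1 limit signals of G proteins, and their log2 ratios were 0.97 ± 0.17 and 1.02 ± 0.60. Dusp6, a phosphatase for ERK, had a log2 ratio of 0.96 ± 0.25. Trib1, a scaffold for protein degradation, had the smallest ratio of the inhibitors compared, 0.62 ± 0.42.

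Some chemokines were high in MicroG2, and Ccl4 varied widely between libraries. Ccl4, which attracts leukocytes, stood at 2117, 1254, 834, 1710, 1808 and 2836 CPM in MicroG2 and at 286, 374, 230, 372, 185 and 260 CPM in MicroG1. Its log2 ratio was 2.53 ± 0.72, and the next cluster, monocytes, reached 384 ± 326 CPM. All clusters other than microglia together held 6.68 to 26.6 CPM. Ccl3, a related chemokine, stood at 1014, 748, 709, 1356, 943 and 1453 CPM against 133 to 302 CPM (log2 ratio 2.26 ± 0.41). Lowest in naris occluded 1 for both chemokines, the MicroG2 libraries still all lay above the highest MicroG1 library. Ccl12, a ligand of Ccr2, was higher in MicroG2 in every library (log2 ratio 1.49 ± 0.57), but the macrophage cluster exceeded both, at 2127 ± 502 CPM. The 17 cytokines in the table summed to 4211 ± 1200 CPM in MicroG2 and 1270 ± 171 CPM in MicroG1, behind macrophages at 5069 ± 701 CPM.

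Classical inflammatory cytokines were scarce. Tnf reached 33.9 ± 9.34 CPM in MicroG2 and 5.36 ± 2.77 CPM in MicroG1, and Il1b 44.5 ± 17.1 and 4.43 ± 3.19 CPM. Il1a, a membrane-associated interleukin, was at 145 ± 41.4 and 68.5 ± 11.3 CPM. Il10 was at 0 in both clusters, and Il6 at 6.57 ± 3.72 and 9.39 ± 4.11 CPM. Tgfb1, which maintains microglial identity, did not separate the clusters (386 ± 25.8 and 379 ± 36.3 CPM, log2 ratio 0.03 ± 0.07).

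Other genes past a log2 ratio of 1 in all 6 libraries were of mixed roles. Neat1, the RNA scaffold of nuclear paraspeckles, was at 384 ± 65.0 against 91.8 ± 14.9 CPM, and Mir142hg, the host RNA of a hematopoietic microRNA, at 114 ± 26.7 against 16.3 ± 5.18 CPM. H3f3b, which encodes the replacement histone H3.3, was at 5042 ± 290 against 1638 ± 149 CPM. Factors of the lineage were not among the genes past 1 in all 6 libraries. Of them, Cebpa had a mean log2 ratio of 1.14 ± 0.25, while Spi1, which encodes PU.1, had one of -0.07 ± 0.20.

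Among gene groups that mark other microglial states, disease-associated, interferon-stimulated, complement and lysosomal genes reached log2 ratios of at most 0.51 among the members compared. Of genes in the table, the level filter passed 7 of 16 disease-associated and 4 of 14 interferon-stimulated ones. It passed 8 of 10 complement genes and 16 of 16 lysosomal genes. The disease-associated list ran from Apoe at a log2 ratio of 0.22 to Cd9 at -0.24, the lysosomal list from Cd68 at 0.03 to Laptm5 at -0.21, and complement from C3ar1 at 0.51 to C1qa at -0.13. Interferon-stimulated genes ran from Isg15 at 0.33 to Bst2 at -0.10. Of 10 antigen presentation genes, 5 passed the filter, with a median log2 ratio of 0.06. Cd74 of this list was uneven, at 48.0, 163, 145, 47.6, 189 and 513 CPM in MicroG2. In MicroG1 it was at 94.3, 94.2, 37.5, 71.4, 76.6 and 155 CPM, so the sign of its ratio differed between libraries. None of the members compared passed a log2 ratio of 1 in all 6 libraries. Of the heat shock genes, Hspa1a, an inducible chaperone, stood out with 60.7 ± 46.4 CPM against 7.94 ± 8.64 CPM, whereas Hsp90ab1 had a log2 ratio of -0.00. Whether the early response arose in the tissue or during dissociation was not tested.

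None of the 270 genes lower in MicroG2 in every library was past a log2 ratio of -1 in each. Rsrp1, a nuclear protein linked to splicing, was lowest with 327 ± 53.1 against 602 ± 75.3 CPM (log2 ratio -0.87 ± 0.17). Luc7l3, another splicing protein, had a log2 ratio of -0.67, the predicted RNA Gm26917 -0.71 and the small nucleolar host RNA Snhg20 -0.70. All 4 were lower in every library.

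MicroG2 also stood apart from the other cell types of the bulb. The 42 early response and inhibitor genes together summed to 24211 ± 1877 CPM in MicroG2, with single libraries between 22202 and 26502 CPM. Macrophages followed at 11715 ± 3211 CPM, OEC2 at 10912 ± 1962 CPM, monocytes at 9461 ± 2505 CPM and EC1 at 6561 ± 1088 CPM. MicroG1 was sixth at 5370 ± 464 CPM. The 42 genes reached at most 1829 CPM in a library of OEC3 and 1077 CPM in one of Astro1, an astrocyte cluster.

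**Figure D2:**
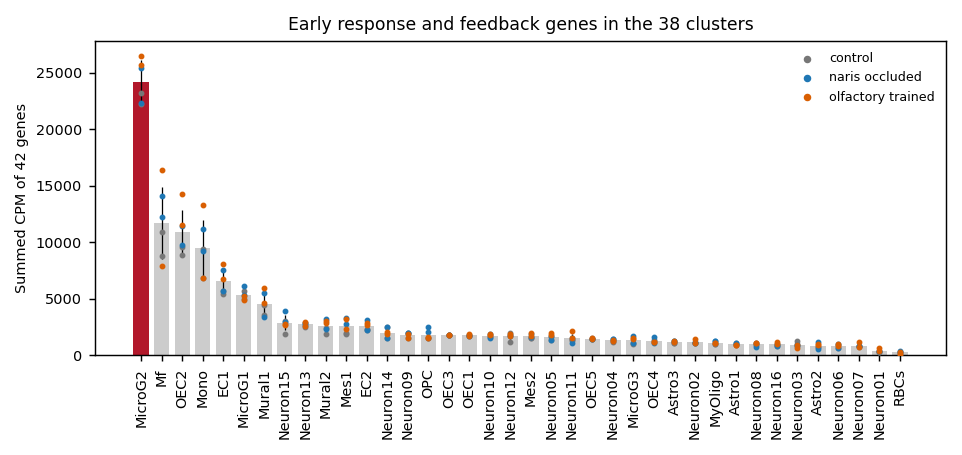
Summed level of the 42 early response and inhibitor genes in the 38 clusters, in CPM, as the mean of the 6 libraries (bars), the SD (lines) and single libraries colored by condition (points). MicroG2 is first with 24211 ± 1877 CPM, and its lowest library lies above the highest library of every other cluster. The cluster was drawn from these same values.

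Early response genes were spread over the cells of the cluster, which was drawn from these same values. Thinned to 1000 UMIs, MicroG2 cells held a median of 22 UMIs of the 42 genes, with an interquartile range of 14 to 33 and extremes of 2 and 93. MicroG1 cells held a median of 5 (3 to 7), with extremes of 0 and 30. Medians of single libraries were 22, 19, 21, 23, 24 and 22 UMIs in MicroG2 and 5, 5, 5, 5, 5 and 4 UMIs in MicroG1. The MicroG1 median was exceeded by 99.0% of MicroG2 cells, and the MicroG2 median by 0.431% of MicroG1 cells. The top decile of MicroG1 began below 87.0% of MicroG2 cells, from 74.3% in control 2 to 92.3% in olfactory trained 1. A MicroG2 cell held UMIs of a median of 11 of the 42 genes and a MicroG1 cell of 4.

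**Figure D3:**
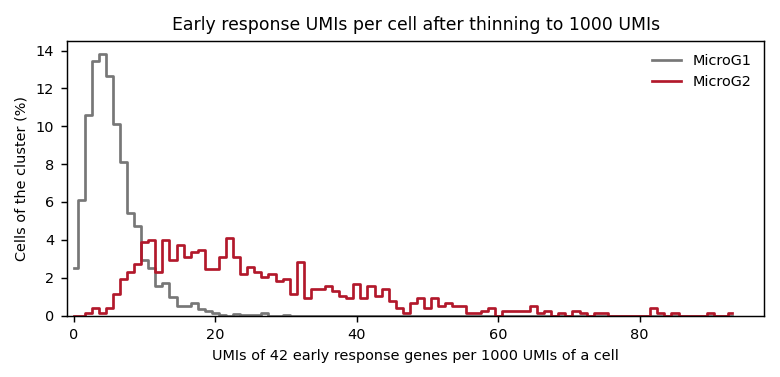
Distribution of UMIs of the 42 early response and inhibitor genes per cell after thinning to 1000 UMIs, as the percent of the cells of MicroG1 and MicroG2. MicroG1 peaks near its median of 5 UMIs, and MicroG2 spreads around 22 UMIs up to 93.

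Single genes differed in how many cells carried them. Jun was found in 91.8% of thinned MicroG2 cells, Junb in 88.4% and Fos in 74.9%, against 39.7%, 32.4% and 11.7% of MicroG1 cells and 7.89%, 2.85% and 5.48% of OEC3 cells. Egr1 was found in 35.3% of MicroG2 cells, 3.40% of MicroG1 cells and 2.63% of OEC3 cells, so its shares in MicroG1 and OEC3 were close. OEC3 was chosen as a cell type that should lack Siglech, and whether it lacks Egr1 was not tested. Ccl4 was found in 42.5% and Ccl3 in 38.5% of MicroG2 cells, 11.8% and 12.8% of MicroG1 cells and 0.222% and 0.285% of OEC3 cells. Before thinning Fos was found in 87.6% and 18.7%, and Ccl4 in 52.7% and 17.1% of MicroG2 and MicroG1 cells.

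Ccl3 and Ccl4 sat in a subset of cells. The tenth of MicroG2 cells with the most UMIs of the gene (78 cells) held 56.8% of all Ccl4 UMIs and 57.4% of all Ccl3 UMIs. The same count of cells held 34.6% of Fos, 26.4% of Jun and 17.7% of C1qa UMIs. Either chemokine was present in 56.5% of the thinned cells and both in 24.5%. Ccl3 was found in 57.6% of cells with Ccl4 and in 24.4% of those without it, and the share was higher in cells with Ccl4 in all 6 libraries.

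MicroG2 cells with and without a UMI of Ccl4 were set side by side over 1459 genes, as a description. Ccl3 was higher in Ccl4 cells, at 1810 ± 424 against 504 ± 159 CPM (log2 ratio 1.85 ± 0.53, higher in 6 of 6 libraries). Cdkn1a, which encodes the cell cycle inhibitor p21, was picked after its values were seen. It stood at 102 ± 43.4 against 41.7 ± 25.2 CPM (log2 ratio 1.14 ± 0.68, higher in 6 of 6). The early factors did not follow the chemokine, with log2 ratios of -0.14 for both Fos and Jun, -0.09 for Junb and -0.01 for Egr1. In all, 32 of the 1459 genes were higher and 42 lower in Ccl4 cells in all 6 libraries. How many genes would share 1 sign in all 6 libraries without any difference was not estimated.

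The conditions were then compared within MicroG2. UMIs of each library were added up and tested by quasi-likelihood in edgeR, with Benjamini-Hochberg adjustment over 5027 genes. Between naris occluded and control libraries 1 gene passed an adjusted p of 0.05 (0.0199%), and 229 genes had an unadjusted p under 0.05. Between trained and control libraries 0 genes passed (0%), with 272 genes at an unadjusted p under 0.05, and between trained and occluded libraries 0 passed (0%), with 255. DESeq2 called 0 genes in each comparison. These counts depended on the fit. With the replicate number as a block 10, 12 and 16 genes were called, with no filter beyond 1 count 10, 10 and 12, and when 1 library was left out 4 to 14, 4 to 17 and 4 to 16, fewest without naris occluded replicate 1 in the first and the last and without olfactory trained replicate 2 in the second. With 2 pools per group, the p-values measure the spread between pools.

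No gene of the early response was called between conditions by this test. Over 16 early factors tested, 0 were called in any of the 3 comparisons, and their median log2 difference was 0.06 for occluded minus control, 0.19 for trained minus control and 0.16 for trained minus occluded, beside medians of 0.02, -0.00 and -0.00 over all genes. Nor were any of 17 inhibitors, 11 cytokines or 19 identity genes called. For Fos the log2 difference was 0.11 for occluded minus control, with an interval of 2 SE from -0.15 to 0.37, and 0.35 for trained minus control, with an interval from 0.09 to 0.61 and an adjusted p of 0.874. For Junb the first difference was 0.13, with an interval from -0.15 to 0.41. Jun had one of 0.07, with an interval from -0.20 to 0.35. Differences of the size seen between MicroG2 and MicroG1 thus lay outside these intervals. The cluster was drawn from these same values, so levels within it cannot show whether a condition moved cells into MicroG2. In trained libraries Klf2 was at 1054 and 1026 CPM, above the 589 and 441 CPM of controls, without passing the test (log2 difference 0.99 ± 0.21 SE, adjusted p = 0.313). With the replicate number as a block, Klf2 passed (0.99, edgeR adjusted p = 4.14e-05), so the fits differed in the estimated spread and not in the size. Deviations of same-numbered libraries correlated at 0.0923 to 0.114. All clusters other than microglia had 239 and 200 CPM of Klf2 in trained and 120 and 173 CPM in control libraries.

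S100a5, a calcium-binding protein of olfactory sensory neurons whose expression depends on odor stimulation, fell after occlusion. It stood at 486 and 386 CPM in control, 190 and 76.7 CPM in occluded and 443 and 243 CPM in trained MicroG2 cells. The occluded libraries lay below all others, and the log2 difference from control was -1.72 ± 0.286 SE (edgeR adjusted p = 0.0234). It was -2.46 without naris occluded replicate 1 and -1.23 without naris occluded replicate 2, and it was called in both. UMIs of S100a5 were found in 56 of 117 and 71 of 138 control cells and in 38 of 117 and 27 of 177 occluded cells. The gene was also called between replicate numbers, lower in replicate 2 by a log2 difference of -0.69 (edgeR adjusted p = 0.00788), a call lost without any 1 library other than control replicate 2. MicroG1 had 588 and 531 CPM in control and 235 and 101 CPM in occluded libraries, and all clusters other than microglia 1285, 1253, 554 and 215 CPM. The gene was at 21296 CPM in Neuron01, and MicroG2 was 31st of the 38 clusters. The fall in MicroG2 differed from that in MicroG1 by a log2 of 0.01 ± 0.24 SE (adjusted p = 1.00). Under DESeq2 the adjusted p was 1.00 at a log2 difference of -1.72. The part of free RNA in this result was not tested.

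Other genes with the smallest p-values did not pass in this test, and those named here passed under some of the alternatives, among them the replicate number as a block. The labels tie no replicate number to a shared animal or day, so a pass with the block is not read as a call. Same-numbered libraries of the 3 conditions do share the state of sex-linked genes. The fit without the block counts differences between replicate numbers as spread. Ccl12 was at 1011 and 394 CPM in control, 264 and 288 in occluded and 753 and 712 CPM in trained libraries, with the occluded libraries lowest. Its log2 difference was -1.33 ± 0.274 SE for occluded minus control (adjusted p = 0.127) and 1.37 for trained minus occluded (adjusted p = 0.129). The first was -0.52 without control replicate 1 (adjusted p = 0.993), where 1 cell held 122 of 295 UMIs. With cells of at least 1000 UMIs alone, both passed the test (adjusted p = 0.0491 and 0.0484), and with the replicate number as a block they had adjusted p = 3.44e-06 and 3.46e-07. In MicroG1 the gene fell after occlusion by 1.38 on the log2 scale (adjusted p = 0.00121), as 1 of 5 genes called there (0.0658% of 7599). Ccl5, a chemokine of lymphoid cells, was at 688 CPM in control 2 and at 5.67 to 72.5 CPM elsewhere, and 1 cell of control 2 held 241 of its 253 UMIs. Its log2 difference for occluded minus control was -4.70 (adjusted p = 0.127, and 9.50e-18 with the block), and 0.40 without control replicate 2. Cd74, the chaperone of class II antigen presentation, was at 189 and 513 CPM in trained and 145 and 47.6 CPM in occluded libraries (log2 difference 1.94, adjusted p = 0.202, and 4.00e-06 with the block), and 1 cell held 114 of the 198 UMIs of trained 2. The log2 difference of Cd74 was 0.92 without olfactory trained replicate 2 (adjusted p = 0.539).

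Ifi27l2a, an interferon-stimulated gene, was at 241 and 352 CPM in trained and 113 and 137 CPM in occluded libraries (log2 difference 1.24 ± 0.244 SE, adjusted p = 0.129, and 0.000189 with the block). Of the interferon list, 8 genes were tested and 0 called in each comparison. Their median log2 difference was -0.96 for occluded minus control, -0.17 for trained minus control and 0.32 for trained minus occluded. Apod and Hbb-bs, markers of ensheathing and red blood cells, had log2 differences of -1.45 and -2.22 for trained minus control (adjusted p = 0.313 for each, and 2.80e-05 and 6.39e-05 with the block). Apod was at -2.56 without olfactory trained replicate 1, -0.68 without olfactory trained replicate 2 and -0.89 without cells that held 10 or more UMIs of ensheathing markers. Hbb-bs was at -1.13 without control replicate 1.

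Whether the gap between MicroG2 and MicroG1 changed with condition was tested next, with the library as a block, over 6902 genes. The test called 8 genes for occluded minus control (0.116%, 1 higher and 7 lower in MicroG2), 4 for trained minus control (0.0580%) and 3 for trained minus occluded (0.0435%). At an unadjusted p under 0.05 there were 317, 308 and 304 genes. When 1 library was left out the counts were 1 to 10, 1 to 9 and 0 to 5, fewest without olfactory trained replicate 2 in each and, in the second, as few without control replicate 2.

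Ccl4 was called in both comparisons with training. In MicroG2 it was at 2117 and 1254 CPM in control, 834 and 1710 in occluded and 1808 and 2836 CPM in trained libraries, whereas in MicroG1 the trained libraries, at 185 and 260 CPM, lay below the controls at 286 and 374 CPM. The log2 fold change of trained over control was higher in MicroG2 than in MicroG1 by 1.04 ± 0.19 SE (edgeR adjusted p = 0.00153), and that of trained over occluded by 1.33 ± 0.19 SE (adjusted p = 1.90e-05). Taken alone, neither cluster gave a call for Ccl4, with log2 differences of trained minus control of 0.45 in MicroG2 (adjusted p = 0.935) and -0.61 in MicroG1 (adjusted p = 0.838). Without olfactory trained replicate 2 these differences were 0.91 and 1.20 (adjusted p = 0.681 and 0.375), and without control replicate 2 the first was 0.50 (adjusted p = 0.997).

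Jun moved in the same sense for trained minus occluded. It was at 3490 and 3592 CPM in trained and 3206 and 4065 CPM in occluded MicroG2 cells, and at 557 and 537 CPM against 759 and 955 CPM in MicroG1. MicroG2 libraries of both conditions overlapped, and those of MicroG1 did not. The difference of log2 fold changes was 0.62 ± 0.13 SE (adjusted p = 0.0446), and it passed the threshold with all 6 libraries but not without naris occluded replicate 1 (adjusted p = 0.795), naris occluded replicate 2 (0.974) or olfactory trained replicate 2 (0.622), nor with cells of at least 1000 UMIs alone (0.0952).

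In MicroG2, Ccl12 was at 1011 and 394 CPM in control and 753 and 712 CPM in trained libraries, which overlapped (log2 difference 0.04, edgeR adjusted p = 0.995). In MicroG1, trained libraries at 200 and 129 CPM lay below the controls at 346 and 235 CPM. The gap between the clusters was called for trained minus control, with a difference of 0.93 ± 0.20 SE (adjusted p = 0.0288). Without control replicate 2 or olfactory trained replicate 2 it was not called (adjusted p = 0.943 and 0.886), nor without naris occluded replicate 2 (0.0731).

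Tsc22d3, a leucine zipper protein induced by glucocorticoids, went the other way. In MicroG1 it was at 28.5 and 32.8 CPM in control, 27.2 and 58.0 in occluded and 177 and 83.0 CPM in trained libraries, and it rose with training there (log2 difference 2.09 ± 0.30 SE, adjusted p = 0.00115), the only gene of MicroG1 called in edgeR for trained minus control (0.0132%). For trained minus occluded it was 1 of 9 called in MicroG1 (0.118%). In MicroG2 it was at 134 and 226 CPM in control, 128 and 211 in occluded and 263 and 168 CPM in trained libraries, which overlapped (log2 difference 0.16 ± 0.27 SE, adjusted p = 0.974). The difference between the clusters was -1.79 ± 0.31 SE (adjusted p = 0.00153), and it was not called without control replicate 2 (adjusted p = 0.595) or olfactory trained replicate 1 (0.166). In all clusters other than microglia the gene was at 89.8, 97.5, 92.0, 115, 193 and 137 CPM, highest in the trained libraries.

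M6pr, a receptor that sorts enzymes to lysosomes, was the gene with the higher fold change in MicroG2 after occlusion. It was at 78.8 and 70.7 CPM in control and 136 and 169 CPM in occluded MicroG2 cells, against 129 and 127 CPM and 116 and 90.7 CPM in MicroG1. The difference was 1.33 ± 0.31 SE (adjusted p = 0.0483), and it was not called without control replicate 1, control replicate 2, naris occluded replicate 2, olfactory trained replicate 1 or olfactory trained replicate 2 (adjusted p = 0.234, 0.505, 0.943, 0.0911 and 0.120).

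**Figure D4:**
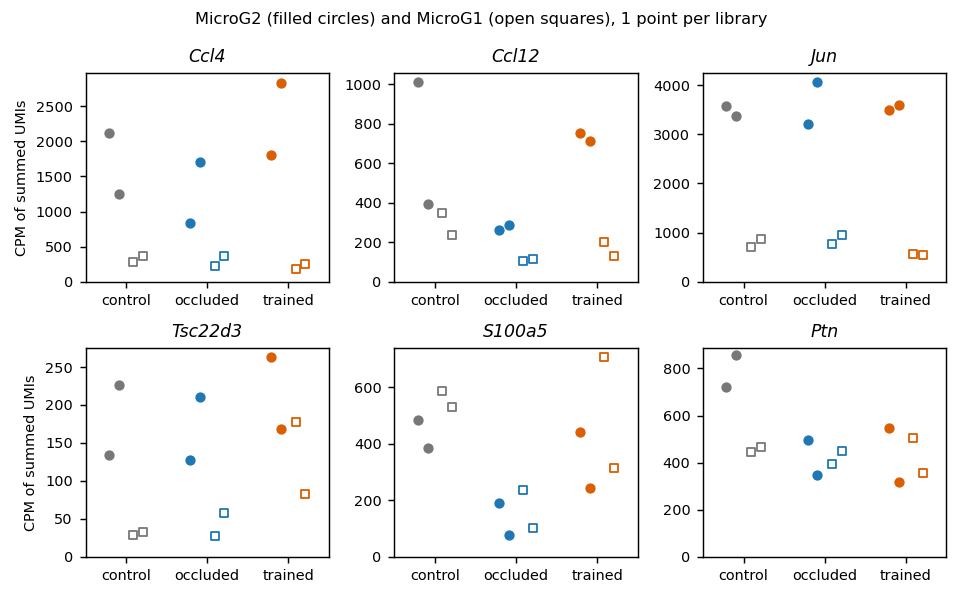
Levels of 6 genes by condition in MicroG2 (filled circles) and MicroG1 (open squares), 1 point per library, in CPM. Ccl4 of trained libraries overlaps the controls in MicroG2 and lies below them in MicroG1, Tsc22d3 of trained libraries is raised in MicroG1, and S100a5 is low in the occluded libraries of both clusters.

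The other calls involved genes of other cell types. Ptn, a growth factor at 33701 CPM in OEC3, stood at 719 and 859 CPM in control, 496 and 346 in occluded and 547 and 319 CPM in trained MicroG2 cells, and at 354 to 503 CPM in MicroG1. The richest cell held 34.3% of its UMIs in control 1 and 46.2% in control 2. Npy, a listed marker of ensheathing cells, was called for occluded minus control together with Ptn, with a difference of -0.98 beside -0.83 (adjusted p = 0.0180 for each). Of 790 MicroG2 cells, 25 (3.17%) held 10 or more UMIs of the 8 ensheathing markers, 6, 7, 3, 3, 3 and 3 per library, against 52 of 2260 MicroG1 cells (2.30%). Without those cells the differences were 0.23 for Ptn and -0.21 for Npy, and neither was called.

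The same omission kept the calls of Ccl4 and Jun. Ccl4 then had a difference of 0.94 for trained minus control (adjusted p = 2.39e-05) and 1.23 for trained minus occluded (adjusted p = 7.69e-10), and Jun one of 0.62 (adjusted p = 0.00464). For S100a5 in MicroG2 the omission left a log2 difference of -1.67 (adjusted p = 0.0505). Hemoglobin genes Hba-a1, Hba-a2 and Hbb-bs, called for occluded minus control, were at 250, 192 and 680 CPM in MicroG1 of naris occluded 2 and at 30.7, 21.1 and 124 CPM or less in the other MicroG1 libraries.

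MicroG2 cells were counted against all annotated cells with edgeR over the 38 clusters. They made up 1.17%, 1.79%, 1.61%, 1.93%, 0.993% and 2.03% of the cells of the 6 libraries. The log2 difference was 0.27 ± 0.315 SE for occluded minus control (adjusted p = 0.741), 0.02 ± 0.318 SE for trained minus control (adjusted p = 0.983) and -0.25 ± 0.316 SE for trained minus occluded (adjusted p = 0.627). The test called 1 of 38 clusters (2.63%), 0 (0%) and 8 (21.1%) in these comparisons, and MicroG2 was not among them.

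Of all microglia, MicroG2 made up 17.3%, 21.6%, 24.7%, 24.8%, 12.1% and 21.5%. Trained 1 was lowest, with an exact 95% binomial interval from 10.0% to 14.5%, which covers counting error only, and it did not overlap the interval of trained 2 (18.4% to 24.9%). The share was 5.30 percentage points higher in occluded than in control libraries, 2.63 points lower in trained than in control and 7.92 points lower in trained than in occluded libraries. The difference of trained from control came to 2.07 points without olfactory trained replicate 1 and to -7.32 points without olfactory trained replicate 2. Exact two-sided permutation tests gave p = 0.333, 0.667 and 0.333, and with 2 libraries a group 0.333 is the smallest p possible.

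**Figure D5:**
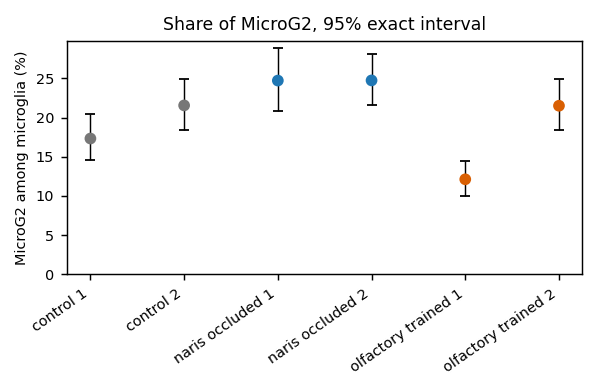
MicroG2 as a percent of all microglia in each of the 6 libraries, colored by condition, with the exact 95% binomial interval. Both naris occluded libraries lie near 25% with overlapping intervals, and the trained libraries differ from each other.

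Replicate 2 was compared with replicate 1 with condition as a covariate, since sex-linked genes split the libraries by this number. The test called 32 of 5027 genes (0.637%), 25 higher and 7 lower in replicate 2. Among them were 4 sex-linked genes, Xist, Tsix, Ddx3y and Eif2s3y. Xist had 0 UMIs in the 3 libraries of replicate 1 and 555, 618 and 664 UMIs in those of replicate 2, and Ddx3y had 18, 17 and 19 UMIs in replicate 1 and 0 in replicate 2. A further 16, all higher in replicate 2, were pseudogenes or predicted genes, with the named genes Wdr89 and Rps27rt counted among them. Their counts are uncertain where reads are shared with near-identical copies. Dusp1 rose in replicate 2 by 0.63 ± 0.13 SE on the log2 scale (adjusted p = 0.000922) and Nfkbia by 0.57 ± 0.14 SE (adjusted p = 0.0198). H2-D1 and H2-K1, class I antigen-presenting molecules, rose by 0.62 and 0.52. Hspa1a fell by 1.35, and by 2.14 when naris occluded replicate 1 or replicate 2 was left out. Each of these calls was lost without at least 1 of the libraries, and those of Nfkbia and H2-K1 without any 1 of the 6. Without control replicate 1 none of these 5 genes was called (edgeR adjusted p = 0.0980 for Dusp1, 0.112 for Nfkbia, 0.0693 for H2-D1, 0.398 for H2-K1 and 0.775 for Hspa1a). DESeq2 called 3 genes, and sex and any other difference between the replicate numbers cannot be told apart.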

How the data were processed

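Single cells of 6 mouse olfactory bulb libraries were captured with 10x Chromium 3′ version 2 chemistry and sequenced on a NextSeq instrument. The submitters' processing notes name Cell Ranger 2.0.0, Seurat 2.2.1 and mm10. The authors deposited counts of UMIs per gene and cell, which were not normalized, for 18560 genes and 52549 barcodes. They also deposited an annotation with the library, the cluster and the fraction of mitochondrial UMIs of a cell. The study states a minimum of 200 genes per cell, clustering of log-normalized values after regression on UMIs and mitochondrial genes, removal of doublets and merging of indistinct clusters. The 1123 barcodes without a cluster were left out. The deposited log-normalized matrix and the annotation of neurons were not used here.

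Libraries were taken from the library column of the annotation, since cell names of the trained libraries start with the other trained library's number. Cluster names follow the study's lists, to which the deposited clusters were matched by numbers of cells in all 6 libraries, and 11 clusters have the same name in both. Counts were summed per cluster and library. For MicroG2 over MicroG1, log2(CPM + 10) was subtracted within each library, for genes of at least 50 CPM in either cluster. A log2 ratio on this scale understates the difference of low genes. Conditions were compared with edgeR 4.0.16 (R 4.3.3), with TMM factors, filtering of low counts, all 6 libraries in a fit and an adjusted p of 0.05. The gap between clusters was tested as an interaction with the library as block, and numbers of cells were tested over the 38 clusters. DESeq2 1.42.0 was an alternative. Python 3.11.15, numpy 2.4.6, pandas 2.3.3, scipy 1.17.1 and matplotlib 3.10.9 were used for the rest. Cells were thinned at random to 1000 UMIs for shares and scores per cell, which left out 13 MicroG2 and 170 MicroG1 cells.

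On simulated counts of the comparison of naris occluded and control MicroG2 cells (4728 genes), 13.0% of changes of 1 and 75.8% of changes of 2 on the log2 scale were recovered. For the difference between clusters (5024 genes) these were 1.01% and 38%. The simulation gave all genes the same fixed spread between libraries, not the spread estimated from the data. It drew MicroG1 and MicroG2 of a library independently. The percentages hold for these settings only. Replicate libraries differed by more than sampling noise, with chi-square over degrees of freedom between 1.57 and 1.98. The study treats each library as a batch of its own, and p-values measure the spread between libraries.

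Genes named were members of lists (early factors, inhibitors, cytokines, identity, lineage factors, complement, lysosome, receptors, disease-associated, interferon, antigen presentation, heat shock, division and markers of other cell types), the 25 highest and 15 lowest log2 ratios with 1 sign in all libraries, and the genes called or with the smallest p-values. The members and the lists were chosen with earlier results of these data known. Genes outside that rule, such as Cdkn1a, were chosen after their values were seen. Alternatives were another tool, scaling, filter, pseudocount or total, deeper cells, the replicate number as a block, and each library left out. Some of the genes counted are not reported here by name.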

Additional observations from a re-analysis of the deposited data

Results flagged for a closer look

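The difference between MicroG2 and MicroG1 in the log2 fold change passed an adjusted p of 0.05 (edgeR, over 6902 genes) for the genes that follow. For naris occluded minus control these were Ccl5 at -4.68 (adjusted p = 9.49e-07), Hba-a1 at -4.23 (0.00173), Hba-a2 at -3.36 (0.0300), Hbb-bs at -2.37 (0.000606), Npy at -0.98 and Ptn at -0.83 (0.0180 for each), and M6pr at 1.33 (0.0483). For olfactory trained minus control they were Tsc22d3 at -1.79 and Ccl4 at 1.04 (0.00153 for each), Ccl12 at 0.93 (0.0288) and Ptn at -0.81 (0.0461). For olfactory trained minus naris occluded they were Hba-a1 at 4.70 (0.0263), Ccl4 at 1.33 (1.90e-05) and Jun at 0.62 (0.0446). Each of these calls was lost in at least 1 of the 6 fits that left out 1 library. The difference of Ccl5 was -1.84 without control replicate 2 and -1.33 without naris occluded replicate 1 (adjusted p = 0.998 for each), that of Hba-a1 for occluded minus control 0.72 without control replicate 1, that of Hbb-bs -0.50 without naris occluded replicate 2, and that of Ccl4 for trained minus control 0.50 without control replicate 2 (adjusted p = 0.999, 0.971 and 0.997).

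Single cells carried several of these values. In MicroG2, 1 cell of control 2 held 95.3% of the Ccl5 UMIs of its library, and 1 cell of control 1 held 12 of 17 Hba-a1 UMIs (70.6%). For Ccl12 the richest cell held 122 of 295 UMIs (41.4%) in control 1 and 98 of 275 UMIs (35.6%) in olfactory trained 2. The part of these cells in the differences was not tested, except that the cells with ensheathing markers were left out as an alternative.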

How the results depend on the processing

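When 1 library was left out, 30 to 34 genes were past a log2 ratio of 1 over MicroG1 and 0 past -1 in every other library, a count that can only stay or rise. The counts of genes called between conditions moved with the settings. For occluded minus control, trained minus control and trained minus occluded in MicroG2, in this order, 10, 10 and 12 genes were called with no filter beyond 1 count. DESeq2 called 0 for the first and, between replicates, 3. Cells of at least 1000 UMIs gave 3 for the first and 2 for the last, and library totals without TMM factors gave 2 for the last. Leaving out 1 library gave 4 to 14, 4 to 17 and 4 to 16 calls, with the fewest without naris occluded replicate 1 (4 and 4 in the first and the last) and without olfactory trained replicate 2 (4 in the second), and between replicates 13 to 31, fewest without control replicate 1. The cause was not tested.

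With the replicate number as a block, 10, 12 and 16 genes were called and the log2 difference in MicroG2 cells for trained minus control was -0.014. The deviations of same-numbered libraries correlated at 0.0938, 0.114 and 0.0923, and the labels tie no number to a shared animal or day, while sex-linked genes split the libraries by it.

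For the difference between MicroG2 and MicroG1, trained minus control gave 9 calls without TMM factors. The libraries left out gave 1 to 10 calls for occluded minus control (1 without olfactory trained replicate 2, 2 without naris occluded replicate 2, 4 without control replicate 2), 1 to 9 for trained minus control (1 without control replicate 2 or olfactory trained replicate 2, 2 without naris occluded replicate 2, 9 without control replicate 1) and 0 to 5 for trained minus occluded (0 without olfactory trained replicate 2, 5 without olfactory trained replicate 1). Without cells of 10 or more ensheathing marker UMIs, an alternative chosen after seeing the data, these were 8 for trained minus control and 9 for trained minus occluded, within MicroG2 0 for occluded minus control and 1 for trained minus occluded, and Ptn turned to 0.23. Signs also turned for occluded minus control when 1 library was left out, for Ccl5 in MicroG2 (-5.95 to 0.40, the latter without control replicate 2), Hba-a1 (-6.12 to 0.72, without control replicate 1) and Hba-a2 (-4.25 to 0.43, without naris occluded replicate 2).

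The small differences in cell numbers changed sign. With all microglia as library size, trained minus control was -0.22, and with cells of at least 1000 UMIs trained minus occluded was 0.039. Leaving out 1 library gave -0.014 to 0.60 for occluded minus control, -0.57 to 0.46 for trained minus control (-0.26 without control replicate 1) and -0.83 to 0.19 for trained minus occluded. The share of microglia ranged from 3.18 to 7.41, -7.32 to 2.07 and -12.6 to -3.23 percentage points.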
